A study of Mus musculus with 8 samples.

Results

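The 6 genes Ugt8a, Ap1s3, Fam71b, Pik3ap1, Lhx1 and Bend4 were picked for a large rise in HDC-null over wild-type bone marrow myeloid cells, and the values below follow them through every pool of the series. They are 6 of the 18194 genes named on the array, and 10 probe sets are annotated to 1 of them alone. The marrow difference chose them, so it is given as a description with no test. HDC is histidine decarboxylase, the enzyme that makes histamine, and it is encoded by Hdc. The cells were sorted for CD11b and Gr-1, surface proteins of granulocytes and monocytes, and their RNA was read on 8 single-colour Affymetrix arrays.

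The wild-type marrow pool came from HDC-EGFP mice, whose EGFP reporter marks cells that express Hdc, and the HDC-null marrow pool from HDC-EGFP/HDC-KO mice. Both had 3 mice aged 3 to 4 months, and their sorted cells are described as HDC-expressing. The tumor pools came from colon tumors of HDC-EGFP mice and of mice labelled HDC-EGFP/HDC-KO, 5 mice each, aged 7 months, which had received azoxymethane, a carcinogen, and then 10 days of the colitis-inducing agent dextran sodium sulfate, with tumors taken 22 to 24 weeks later. The treatment text of the tumor samples names the second group HDC-KO without the reporter, and for tumor cells no sort on EGFP is mentioned. All mice are labelled C57BL/6J, and marrow and tumor mice also differed in age and treatment. Cells from 10 to 12 tumors were pooled for each tumor RNA, while pooling of the marrow mice is not stated. The 2 arrays of each of the 4 groups are technical replicates by their labels, so each group is treated as 1 pool. Each adjusted p thus weighs a difference of pools against array-to-array scatter, and variation from mouse to mouse was not measured.

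On each array 30.3% to 31.8% of probe sets lay at or above log2 5, taken here as background, and paired arrays had a correlation of 0.996 to 0.998 across the 8174 tested genes. Granulocyte markers were high in every pool, and none of the 9 measured lay under log2 5 in any. Most of them are not genes of the sorted proteins, and Ly6g, a gene for Gr-1, was not among them. Hdc at its brighter probe set fell from 13.18 to 9.83 (mean log2 value) between the marrow pools. It lay at 13.24 in the wild-type tumor pool and at 13.03 in the tumor pool labelled HDC-null. The other Hdc probe set fell from 12.07 to 7.47 in marrow and lay at 12.18 and 11.98 in these tumor pools. The level in the tumor pool labelled HDC-null goes against its label, so this pool is called the HDC-null-labelled tumor pool throughout.

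The genes belong to unrelated pathways. Ugt8a encodes the transferase that adds galactose to ceramide, the first step toward the galactolipids and sulfatides best known from myelin. Ap1s3 encodes a small subunit of AP-1, the adaptor that gathers cargo into clathrin-coated vesicles at the trans-Golgi network and endosomes. Fam71b belongs to a family of Golgi proteins that bind the GTPase RAB2 and that are known from male germ cells. Pik3ap1 encodes BCAP, an adaptor that links B cell receptor and Toll-like receptor signals to PI3-kinase. Lhx1 encodes a LIM homeodomain transcription factor of head, kidney and neuron development, and Bend4 a protein with a BEN domain, a fold found in DNA-binding and chromatin proteins.

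The RefSeq promoter windows of GRCm38.p6, from 250 bases before to 50 after the gene start, were found for all 6 genes, and 4 are printed because these genes stand for the patterns described after them. Ap1s3 and Pik3ap1 stood low in the wild-type marrow pool alone, while Lhx1 and Fam71b stood far higher in the HDC-null marrow pool than in any other. The windows are chr1:79671923-79672222 (minus strand), chr19:41385053-41385352 (minus strand), chr11:84525485-84525784 (minus strand) and chr11:46404478-46404777 (plus strand). Capitals mark GAGGAA, the core bound by the myeloid factor PU.1, in Ap1s3 and Pik3ap1, the CCAAT box on the reverse strand in Lhx1, and the E-box CANNTG in Fam71b.
Ap1s3: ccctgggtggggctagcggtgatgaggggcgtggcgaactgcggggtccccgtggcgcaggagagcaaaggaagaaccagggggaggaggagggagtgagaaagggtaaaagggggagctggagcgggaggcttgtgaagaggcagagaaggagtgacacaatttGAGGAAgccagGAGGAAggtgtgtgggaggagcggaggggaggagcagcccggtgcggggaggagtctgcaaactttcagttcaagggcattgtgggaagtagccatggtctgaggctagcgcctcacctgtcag
Pik3ap1: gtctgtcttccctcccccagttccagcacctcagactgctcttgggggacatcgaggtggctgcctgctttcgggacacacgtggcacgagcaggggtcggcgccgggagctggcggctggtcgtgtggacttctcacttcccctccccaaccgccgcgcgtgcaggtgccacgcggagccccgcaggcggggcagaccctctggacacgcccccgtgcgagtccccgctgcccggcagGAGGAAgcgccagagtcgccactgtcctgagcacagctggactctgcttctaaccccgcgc
Lhx1: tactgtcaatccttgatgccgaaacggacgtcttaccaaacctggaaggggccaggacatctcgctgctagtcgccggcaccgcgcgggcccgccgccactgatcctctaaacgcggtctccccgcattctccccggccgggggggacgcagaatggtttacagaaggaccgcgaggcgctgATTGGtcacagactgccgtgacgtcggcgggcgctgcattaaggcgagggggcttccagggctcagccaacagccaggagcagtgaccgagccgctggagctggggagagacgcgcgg
Fam71b: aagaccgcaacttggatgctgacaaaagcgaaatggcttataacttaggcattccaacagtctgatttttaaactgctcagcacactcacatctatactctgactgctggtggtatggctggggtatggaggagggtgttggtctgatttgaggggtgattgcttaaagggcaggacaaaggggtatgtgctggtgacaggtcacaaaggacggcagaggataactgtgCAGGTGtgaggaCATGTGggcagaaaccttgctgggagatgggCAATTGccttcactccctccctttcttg

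On either strand, GAGGAA occurred in 2 of the 6 windows, with 2 matches in Ap1s3 and 1 in Pik3ap1, against 28.3% of 32851 windows of the same length. CCAAT occurred in 2 windows, Lhx1 and Bend4, against 37.4%, and the GC box GGGCGG in 2, Ugt8a and Bend4, against 35.7%. CANNTG, the E-box, occurred in 5, all but Lhx1, against 72.3%. Neither the TATA box TATAAA nor the LIM homeodomain core TAATTA occurred in any of them, against 13.6% and 5.29% of all windows. Neighbouring GC boxes overlapped by 2 bases in Ugt8a and by 1 in Bend4 and were counted separately, and no other matches overlapped. Base composition differed among the members, since G and C made up 78.3% of the Ugt8a window and 49.7% of the Fam71b window, with a median of 52.7% over all windows. These matches are letters in a window and not measured binding.

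The level of each gene on every array falls into 3 shapes. Ap1s3, Pik3ap1 and Bend4 were low in the wild-type marrow pool and high in the other 3. Ugt8a was high in the HDC-null marrow and wild-type tumor pools and lower in the remaining ones. Lhx1 and Fam71b were high in the HDC-null marrow pool and near or under background in both tumor pools. Ap1s3, Pik3ap1, Bend4 and Ugt8a were lowest in the wild-type marrow pool, and Ugt8a, Lhx1 and Fam71b were highest in the HDC-null marrow pool. The choice for a rise between the marrow pools favours both, so nothing is read from this.

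**Figure D1:**
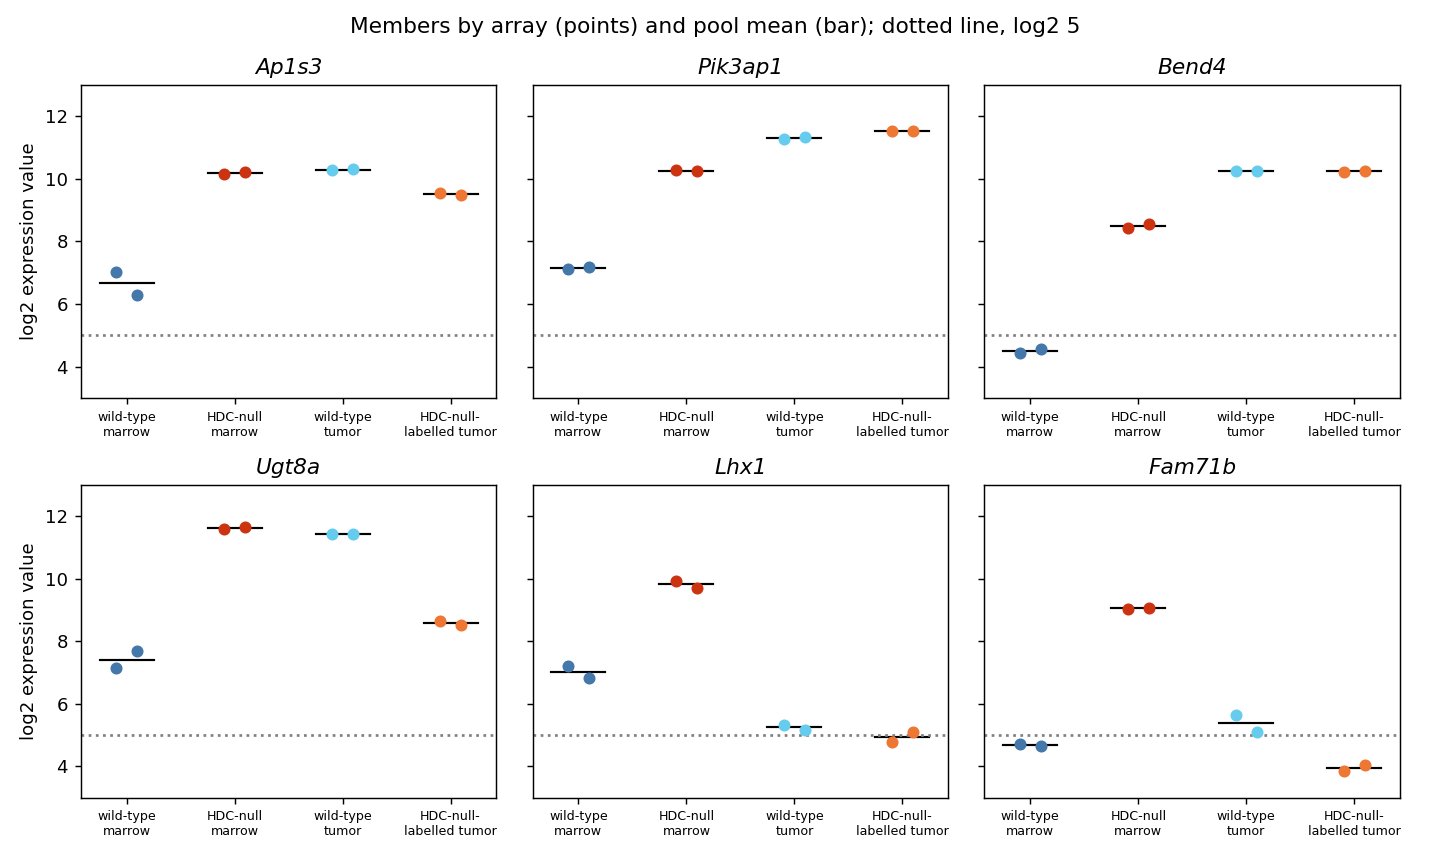
Log2 expression value of each gene at its kept probe set on each of the 8 arrays, with 1 point per technical array, a bar at the pool mean and a dotted line at log2 5. Ap1s3, Pik3ap1 and Bend4 are low in the wild-type marrow pool alone, and Lhx1 and Fam71b are highest in the HDC-null marrow pool.

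Ugt8a, the galactosylceramide synthase, gave log2 values of 7.15 and 7.67 on the wild-type marrow arrays and 11.58 and 11.65 on the HDC-null marrow arrays. The wild-type tumor arrays gave 11.43 and 11.41, and the HDC-null-labelled tumor arrays 8.65 and 8.51. No pool overlapped its neighbour in the order HDC-null marrow, wild-type tumor, HDC-null-labelled tumor, wild-type marrow. The gap between the upper pair, 11.62 ± 0.05 and 11.42 ± 0.01 (mean ± SD, n = 2 technical arrays), was small beside the 4.20 ± 0.16 (SE) between the marrow pools on the log2 scale, which is 18.4-fold.

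Ap1s3, the AP-1 subunit gene, gave 7.04 and 6.29 in wild-type marrow and 10.17 and 10.22 in HDC-null marrow. In the tumor pools it gave 10.27 and 10.30 in wild-type and 9.54 and 9.48 in HDC-null-labelled cells. The wild-type marrow arrays lay 0.75 apart, the widest gap between paired arrays at the kept probe set of any of the 6 genes, and every other pool lay above both. The marrow difference was 3.53 ± 0.22 (SE) on the log2 scale, or 11.5-fold, and ran from 3.15 to 3.90 when 1 of these arrays was left out.

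Fam71b gave 4.72 and 4.65 in wild-type marrow, both under background, and 9.03 and 9.06 in HDC-null marrow. Its tumor values were 5.65 and 5.10 in the wild-type pool and 3.85 and 4.05 in the HDC-null-labelled pool. Thus 1 pool stood clear of background and the other 3 lay around it. With the wild-type mean raised to log2 5, the marrow difference was at least 16.5-fold.

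Pik3ap1, the BCAP gene, gave 7.11 and 7.19 in wild-type marrow, 10.27 and 10.24 in HDC-null marrow, 11.29 and 11.33 in wild-type tumor, and 11.53 and 11.53 in HDC-null-labelled tumor. The 4 pools did not overlap. Wild-type marrow was the low one, 8.58-fold under HDC-null marrow, and HDC-null marrow was itself below both tumor pools.

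Lhx1 gave 7.22 and 6.82 in wild-type marrow and 9.92 and 9.71 in HDC-null marrow. It fell to 5.31 and 5.18 on the wild-type tumor arrays and 4.78 and 5.11 on the HDC-null-labelled ones. Both marrow pools thus lay above both tumor pools, and the marrow difference of 2.80 ± 0.17 (SE) on the log2 scale, 6.95-fold, was the smallest among the 6 genes.

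Bend4 gave 4.43 and 4.58 in wild-type marrow, under background, and 8.43 and 8.57 in HDC-null marrow. Wild-type tumor gave 10.26 and 10.26, and HDC-null-labelled tumor 10.22 and 10.26, and these pools overlapped. Its marrow difference was at least 11.3-fold with the wild-type mean raised to log2 5.

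By rank of the marrow difference over the 8174 tested genes, Fam71b stood at 5, Ugt8a at 7, Bend4 at 10, Ap1s3 at 15, Pik3ap1 at 21 and Lhx1 at 27. Fam71b and Bend4 had wild-type marrow means under background, and with all values raised to log2 5 the order was Ugt8a at 3, Fam71b at 4, Ap1s3 at 5, Bend4 at 6, Pik3ap1 at 8 and Lhx1 at 13. The choice had no fixed limit, and genes not chosen stood between them, such as Gspt2 at 4.36 and Plagl1 at 4.12 on the log2 scale. Just above and below Lhx1 stood Rras2 at 2.81 and Tmem87a at 2.77. Over all tested genes 1.8% were called higher and 2.02% lower in HDC-null marrow, where called means 2-fold or more with an adjusted p under 0.05, and nothing is read from this for genes picked on it. All 6 passed the filter of 2 arrays at or above log2 5, and all 6 would have passed without the HDC-null marrow arrays.

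Probe sets of 1 gene did not always carry the same signal. Of the 6 genes, 4 had another probe set, and for 3 of these, Ugt8a, Pik3ap1 and Bend4, it lay under log2 5 on every array. At these, the marrow difference was 0.75 for Ugt8a, -0.11 for Pik3ap1 and 0.30 for Bend4 on the log2 scale, all between values at background. Lhx1 had both of its probe sets above background in marrow, and the other one rose from 5.16 to 8.20, a log2 difference of 3.05 beside 2.80 at the kept one. Ap1s3 and Fam71b had 1 probe set each, so their values rest on it alone.

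**Figure D2:**
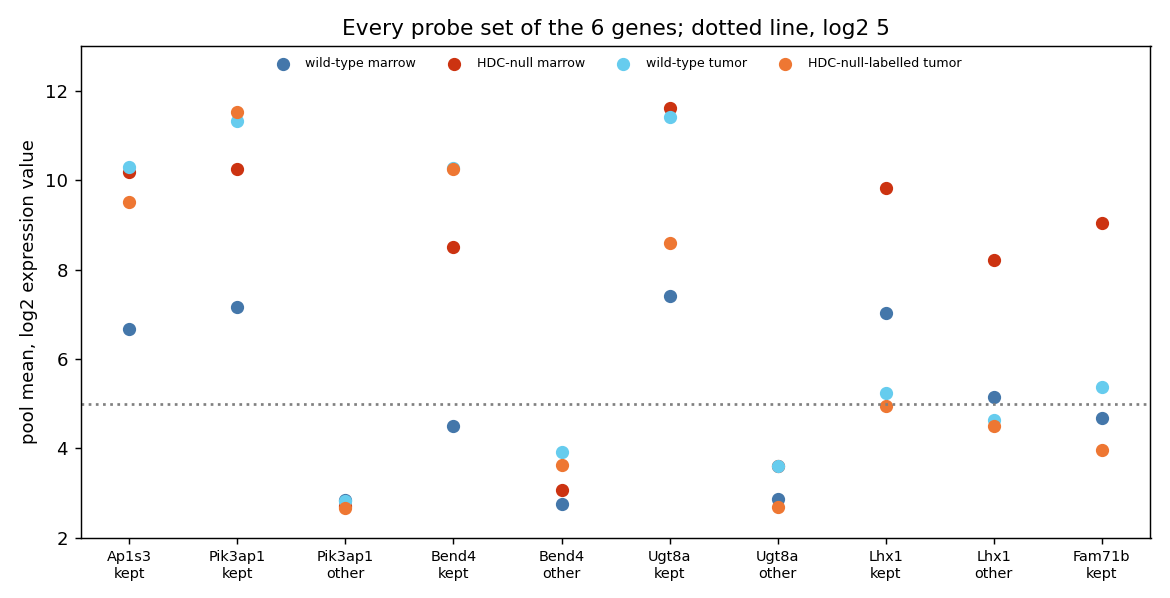
Pool mean (log2 expression value) at each of the 10 probe sets of the 6 genes, with 1 colour per pool and a dotted line at log2 5. The other probe sets of Ugt8a, Pik3ap1 and Bend4 lie under the line in all 4 pools, while both probe sets of Lhx1 show HDC-null marrow on top.

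The tumor comparison shares no array with the contrast that picked the genes and was tested in limma with Benjamini-Hochberg adjustment over all 8174 genes. Of the 6 genes none was called higher in the HDC-null-labelled tumor pool, and 2 were called lower, Ugt8a and Fam71b. Over all tested genes 26% were called, 15.5% higher and 10.5% lower. Ugt8a fell by 2.83 ± 0.16 on the log2 scale (SE), which was 7.14-fold (limma, adjusted p = 1.6e-05), with both arrays of the HDC-null-labelled pool under both wild-type ones. Fam71b fell by 1.42 ± 0.17 (limma, adjusted p = 0.00044), but the HDC-null-labelled mean of 3.95 lay under background. With that mean raised to log2 5 the fall was at least 1.30-fold, and with all values raised to log2 5 before the fit it was 0.37 on the log2 scale and no longer passed (limma, adjusted p = 0.078).

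The other 4 genes stayed under the 2-fold threshold in tumor. Ap1s3 differed by -0.78 ± 0.22 on the log2 scale (limma, adjusted p = 0.018). Pik3ap1 differed by 0.22 ± 0.05 (limma, adjusted p = 0.0093). Both differences passed on p alone and were under 2-fold, and for Ap1s3 the highest adjusted p with 1 array left out was 0.072. Lhx1 differed by -0.30 ± 0.17 (limma, adjusted p = 0.15) close to background, and Bend4 by -0.02 ± 0.07 (limma, adjusted p = 0.8). The Lhx1 difference ran from -0.46 to -0.14 with 1 array left out. After quantile normalization it was -0.52 (limma, adjusted p = 0.032), still under 2-fold.

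**Figure D3:**
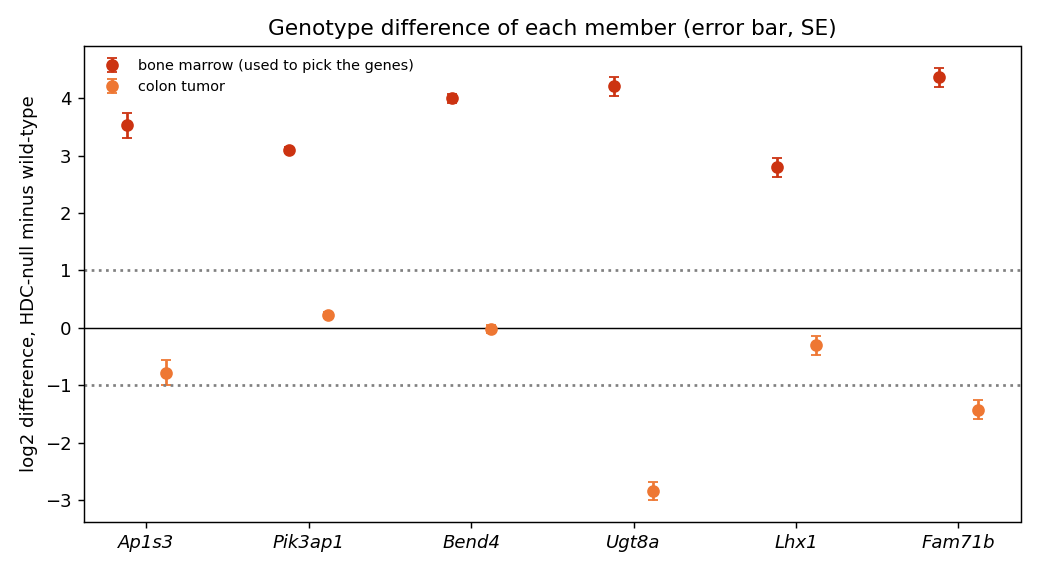
Difference of HDC-null minus wild-type pool means (log2, with limma's SE as error bar) for the 6 genes in bone marrow, which picked them, and in colon tumor, with dotted lines at a 2-fold difference. Marrow differences run from 2.80 to 4.36, and tumor differences from -2.83 to 0.22.

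Markers of other cells moved between the tumor pools as well, where 15.5% of all tested genes were called higher and 10.5% lower. All 8 intestinal epithelial markers were called higher in the HDC-null-labelled pool, and their summed linear level was 20400 to 21300 there against 4180 to 4270 in the wild-type tumor pool. Of 7 monocyte and macrophage markers 5 were called higher (Adgre1, Ccr2, Cd68, Mertk and Cx3cr1), with summed levels of 36200 to 36400 against 23500 to 23800. Among 9 granulocyte markers limma called none and 7 passed an unadjusted p of 0.05, as did 74.8% of all tested genes. Their summed level was 151000 to 153000 against 175000 to 180000. The part of these cells in the fall of Ugt8a and Fam71b was not tested. In such sorted bulk pools, fewer cells of a type and less RNA per cell cannot be told apart. No fibroblast or endothelial marker of 8 reached log2 5 in any pool mean.

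Set between tissues, the genes parted, and these differences are given without a test because each uses a marrow pool that picked them. From wild-type marrow to wild-type tumor, 4 of the 6 were at least 2-fold higher, where 11.6% of all tested genes were. Bend4 was at least 38.3-fold higher with the marrow mean raised to log2 5, Pik3ap1 17.8-fold, Ugt8a 16.1-fold and Ap1s3 12.3-fold, while Lhx1 alone was at least 2-fold lower, by 3.41-fold, as were 4.81% of all tested genes. From HDC-null marrow to HDC-null-labelled tumor, 2 were at least 2-fold higher and 3 lower, where 21.1% and 15.4% of all tested genes were. Bend4 was 3.34-fold and Pik3ap1 2.42-fold higher, Ugt8a was 8.19-fold lower, and Ap1s3 lay 1.61-fold under its marrow level. Lhx1 was at least 28.2-fold lower and Fam71b at least 16.5-fold lower, with tumor means raised to log2 5. Both tissue comparisons use pools of the genotype comparisons, so they are no separate measurements. The choice of the genes favours low values in wild-type marrow and high ones in HDC-null marrow. Nothing is therefore read from these counts beside the shares of all genes. Markers of other cells differed between the tissues too. Monocyte and macrophage markers stood at summed levels of 2950 to 3010 in wild-type marrow, 3430 to 3460 in HDC-null marrow and 23500 to 36400 across the tumor arrays. Epithelial markers summed to 175 to 215 across the marrow arrays and 4180 to 21300 across the tumor arrays, B cell markers to 1100 to 1960 and 12900 to 18000, and basophil and mast cell markers to 404 to 1560 and 50.1 to 86.1. Plasmacytoid dendritic cell markers summed to 117 to 163 and 439 to 915. Tcf4 alone made up 68.1% to 93% of this sum in the 4 pools, so the sum follows Tcf4. The other 4 of these markers lay under log2 5 in both marrow pools and in wild-type tumor. The part of these cells in the tissue differences was not tested. Between the genotypes, 1.8% of all tested genes were called higher and 2.02% lower in marrow, and 15.5% and 10.5% in tumor. Of 3 tested plasmacytoid markers Spib was called higher in marrow, between means of 3.26 and 4.61, both under log2 5. In tumor Spib and Ccr9 were called higher, from wild-type means of 2.74 and 3.17, also under log2 5. In marrow Mertk was called higher and Adgre1 and Cd14 lower, and Mertk and Cx3cr1 lay under log2 5 in both marrow pools. The epithelial marker Cdh1 was called lower in marrow between means under log2 5.

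Of 22 listed enzymes of galactolipid and sphingolipid metabolism around Ugt8a, 17 were tested, and in marrow none was called higher and Gla was called lower. With 3.82% of all tested genes called in either direction, these counts say nothing particular to the list. Gla, the alpha-galactosidase that trims galactose from lipids, went from 5.11 to 3.50 (log2 mean), which is at least 1.08-fold with the lower mean raised to log2 5. Galc, which removes the galactose that Ugt8a adds, lay at 9.56 in wild-type and 9.49 in HDC-null marrow. Ugcg, which adds glucose to ceramide in place of galactose, lay at 9.33 and 9.34 at its kept probe set, but another of its probe sets was called lower by 1.34 on the log2 scale when every probe set was tested on its own (limma, adjusted p = 0.035). Gal3st1, which turns galactosylceramide into sulfatide, did not reach the level needed for testing, with pool means of 2.96 to 3.71.

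In tumor 3 of these 17 enzymes were called higher in the HDC-null-labelled pool and none lower, near the 15.5% and 10.5% of all tested genes. Fa2h, which hydroxylates the fatty acids of such lipids, was at least 7.79-fold higher, Degs2, which makes phytoceramide, at least 2.25-fold, and Arsa, the sulfatide sulfatase, 2.16-fold (limma, adjusted p = 7.9e-06, 1.1e-05 and 0.00031). Degs1 and Smpd1, a dihydroceramide desaturase and the acid sphingomyelinase, differed by -0.99 and -0.92 on the log2 scale, and Gla and Galc by -0.82 and -0.56 (limma, adjusted p = 1.1e-05, 0.00045, 0.00084 and 0.00049), all under 2-fold. Psap, Sgpl1 and Asah1 rose by 0.85, 0.74 and 0.71 (limma, adjusted p = 1.9e-05, 0.00015 and 3.3e-05), also under 2-fold. Psap was called higher with probe sets averaged, at 1.07, and with each probe set tested on its own, at 1.30. Degs1 was called lower with probe sets averaged, with each probe set tested on its own and without array 2 of wild-type tumor, and Smpd1 without array 1 of HDC-null-labelled tumor. Arsa lost the call at a log2 difference of 0.96 without array 2 of the HDC-null-labelled pool. The list median was 0.03 in marrow and 0.14 in tumor on the log2 scale, beside 0.00 and 0.03 over all tested genes. All 8 epithelial markers were called higher in the HDC-null-labelled tumor pool too. Their part in the values of Fa2h, Degs2 and the other enzymes was not tested.

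In marrow limma called none of the 15 tested genes of the AP-1 adaptor and clathrin list, where 3.82% of all genes were called. Of the 15, 3 passed an unadjusted p of 0.05, where 35.1% of all genes did, and the differences ran from -0.39 to 0.17 on the log2 scale. The paralogs of Ap1s3 for the same subunit, Ap1s1 and Ap1s2, went from 7.23 to 6.84 and from 13.10 to 13.19 (log2 means), and the large and medium subunits Ap1g1 and Ap1m1 from 8.91 to 8.91 and from 11.13 to 11.21. In tumor 1 of the 15 was called higher and 1 lower, where 15.5% and 10.5% of all tested genes were. Gga2, another Golgi adaptor, was 2.26-fold higher and Synrg, an AP-1 binding protein, 2.07-fold lower (limma, adjusted p = 5.4e-05 and 0.00026). Synrg was no longer called when array 2 of wild-type tumor was left out, at -0.93 on the log2 scale, or array 1 of the HDC-null-labelled tumor, at -0.91.

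Among 18 tested genes of PI3-kinase adaptor signalling, 2 were called higher in HDC-null marrow and none lower, where 1.8% and 2.02% of all tested genes were. Pik3cg, the catalytic subunit p110 gamma of leukocytes, went from 9.51 to 10.76, which was 2.37-fold (limma, adjusted p = 0.00033). The other detected probe set of Pik3cg differed by -0.39 on the log2 scale, so the probe sets of this gene disagree. Blnk, an adaptor of the B cell receptor, rose from 4.07 to 5.37, at least 1.29-fold (limma, adjusted p = 0.019), and lost the call without array 1 of wild-type marrow, at a log2 difference of 0.94, and without either HDC-null marrow array, with an adjusted p of 0.051 and 0.1. Pik3cd and Pik3r5, the leukocyte catalytic subunit p110 delta and a regulatory subunit of p110 gamma, differed by 0.27 and 0.14.

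In tumor 2 of these 18 were called higher and 1 lower, against 15.5% and 10.5% of all tested genes. Bank1, a B cell adaptor related to BCAP, rose 5.22-fold and Blnk 4.91-fold, while Pik3cb, the widely expressed p110 beta, fell 2.55-fold (limma, adjusted p = 6.4e-07, 0.00035 and 1.7e-05). B cell markers moved too. Of 4 tested, Cd79b, Ms4a1 and Ebf1 were called higher in the HDC-null-labelled tumor pool, with summed linear levels over 8 markers of 17600 to 18000 against 12900, and Cd79a and Pax5 lay under log2 5 in all 4 pools. In marrow Cd79b and Ebf1 were called higher and Ighm lower, where 1.8% and 2.02% of all tested genes were. The marrow rise of Ebf1 was at least 1.17-fold. The wild-type means of Ebf1 lay under log2 5 in marrow and in tumor, at 3.59 and 3.41. The summed level in marrow was 1100 to 1130 in the HDC-null pool against 1890 to 1960 in the wild-type pool. Ighm alone made up 76.5% to 98.5% of this sum in the 4 pools, so the sum follows Ighm. Their part in the values of Pik3ap1 and Blnk was not tested.

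Most LIM homeodomain relatives of Lhx1 did not reach the level needed for testing, and 7 of 18 listed genes were tested. Lhx2, Lhx4, Lhx5, Lhx6, Lhx8 and Lhx9 had pool means of 1.74 to 2.90. Ldb1, the cofactor that bridges LIM proteins, lay at 5.28 in wild-type and 5.44 in HDC-null marrow. Ssbp2, which stabilises that cofactor, was the 1 of the 7 called in marrow, where 3.82% of all tested genes were, rising from 7.10 to 8.58, 2.79-fold (limma, adjusted p = 0.00027), and its other detected probe set rose by 1.72 on the log2 scale. In tumor 2 of the 7 were called, where 26% of all tested genes were, as the LIM-only genes Lmo1 and Lmo4 fell, Lmo1 at least 4.87-fold and Lmo4 2.04-fold (limma, adjusted p = 5.9e-07 and 1.2e-05). Leaving out array 2 of wild-type tumor brought Lmo4 to -0.98 on the log2 scale, short of the call.

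None of the 7 other BEN domain genes listed beside Bend4 reached the level needed for testing, nor did any listed Fam71 relative on the array. The RAB2 genes did. Rab2a lay at 12.29 and 12.26 in the marrow pools, and Rab2b was called higher in the HDC-null-labelled tumor pool, at least 1.68-fold (limma, adjusted p = 6.2e-05). It lost the call with values raised to log2 5, at a log2 difference of 0.75, and with probe sets averaged, and its other probe sets were not detected.

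**Figure D4:**
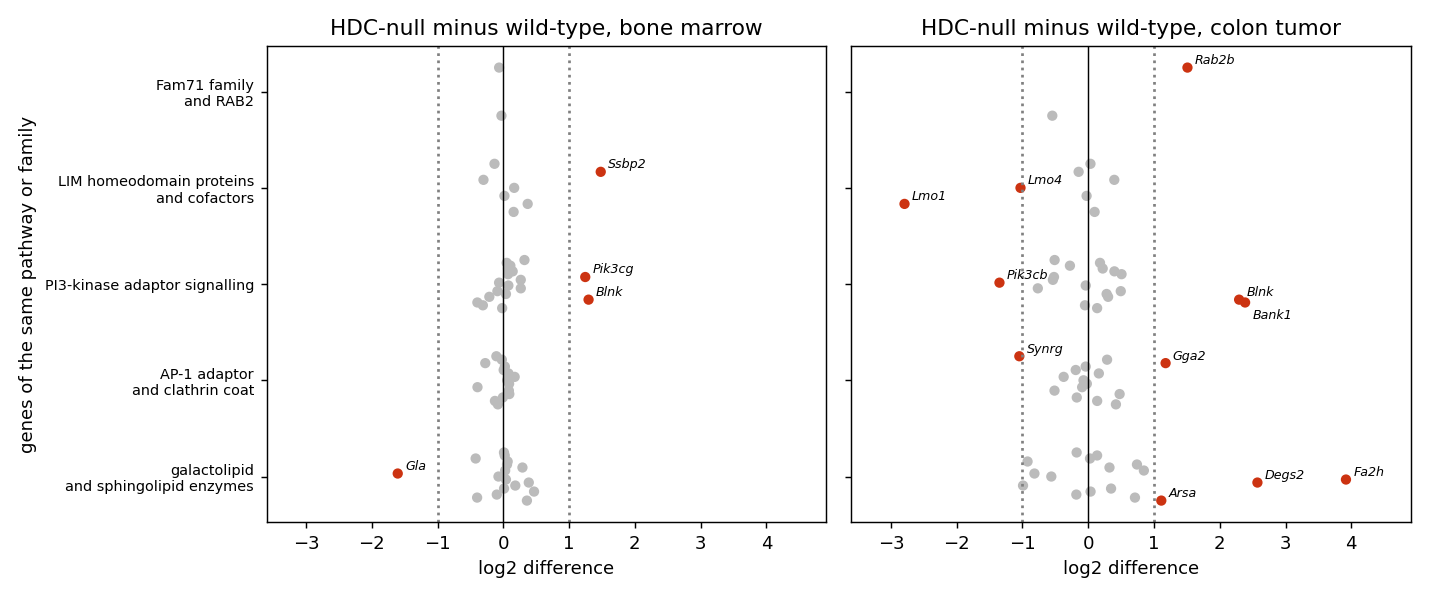
Log2 difference of HDC-null minus wild-type pools for each tested gene of the pathway and family lists, in bone marrow (left) and colon tumor (right), with called genes in red and named and dotted lines at a 2-fold difference. In marrow 4 genes are called, Gla lower and Pik3cg, Blnk and Ssbp2 higher.

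The genes next to each member on the chromosome were examined from the gene order of RefSeq's GRCm38.p6. Of the 60 genes within 5 places on either side, 25 were on the array under 1 symbol and 12 were tested, with none beside Ugt8a. In marrow limma called none of the 12, where 3.82% of all tested genes were called, so this count says little. Of the 12, 6 passed an unadjusted p of 0.05, where 35.1% of all genes did. Their log2 differences ran from -0.52 at Wdfy1, the gene next to Ap1s3, to 0.73 at Aatf, next to Lhx1. Mrpl44, the next gene after Wdfy1, differed by -0.51. In tumor Wdfy1 differed by -0.79 and Mrpl44 by -0.85 on the log2 scale (limma, adjusted p = 3.6e-05 and 2.8e-05), under 2-fold, beside -0.78 for Ap1s3. Cyfip2, 5 genes from Fam71b, was the 1 neighbour called in tumor, lower by 1.31 on the log2 scale (limma, adjusted p = 7.9e-06), where 26% of all tested genes were called in either direction. Another probe set of Cyfip2 was called higher in marrow when every probe set was tested on its own.

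**Figure D5:**
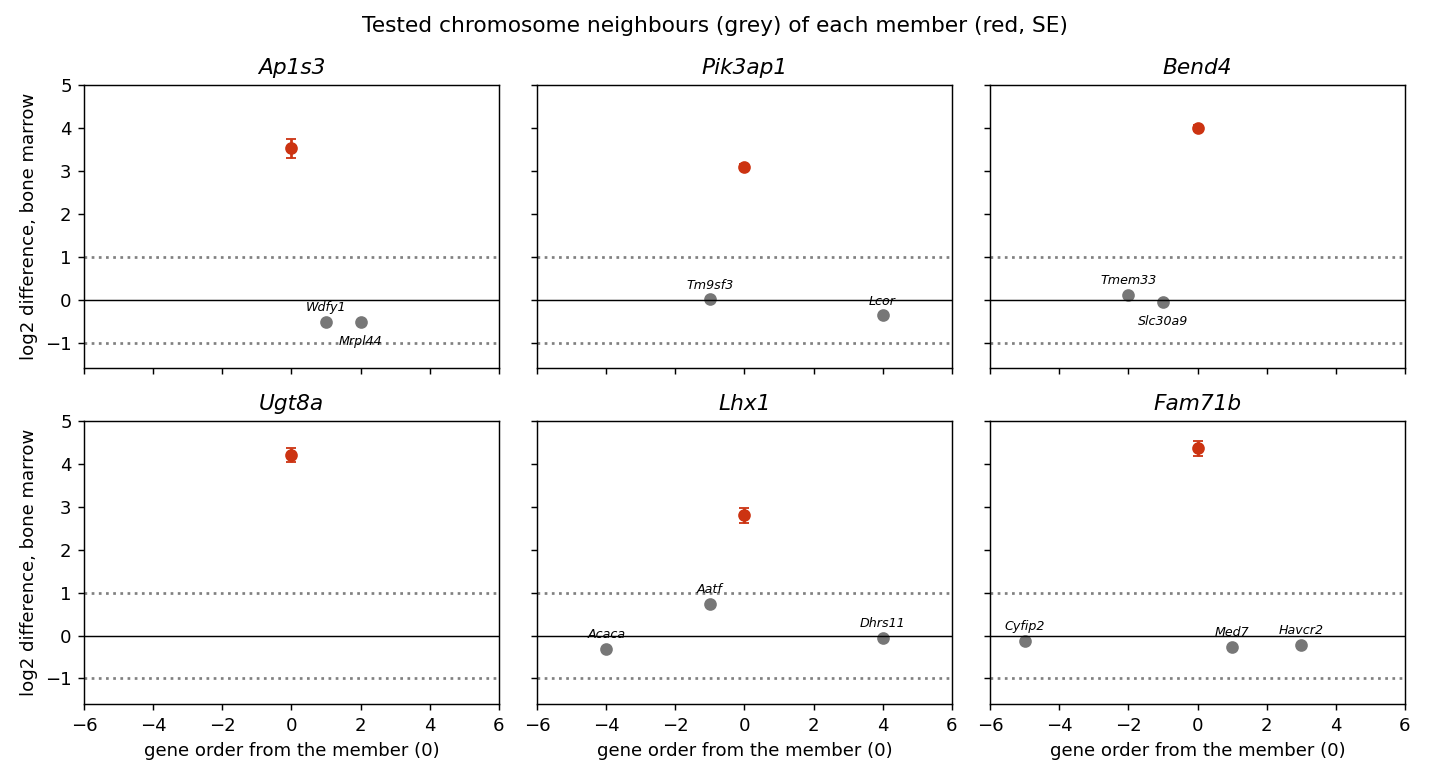
Log2 difference of HDC-null minus wild-type bone marrow for each of the 6 genes (red, with SE) and for the tested genes within 5 places on its chromosome (grey), by gene order. The 12 neighbours lie between -0.52 and 0.73, inside the dotted lines at a 2-fold difference.

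The nearest patterns over the 8 arrays were found by the root mean square difference of values raised to log2 5 and centred on each gene's mean, among tested genes outside the 6. The arrays of a pool share their RNA, so the 8 points stand for 4 pools. The marrow arrays also picked the 6 genes, and the nearest genes were chosen for likeness. Both favour a high r, here and among the 6 genes, so nothing is read from its size. Nearest to Ugt8a was Cd3d, a chain of the T cell receptor complex, at a distance of 0.60 and r = 0.95. Cd3d went from 7.63 in wild-type to 12.48 in HDC-null marrow, and from 12.03 to 10.28 between the tumor pools. Of 4 tested T and NK cell markers, Cd3d was called higher and Nkg7 lower in HDC-null marrow. In the HDC-null-labelled tumor pool Cd3d was called lower and Cd3g and Cd2 higher. Over all tested genes 1.8% were called higher and 2.02% lower in marrow, and 15.5% and 10.5% in tumor. Summed linear levels over 7 markers were 766 to 1050 and 6010 to 6110 in wild-type and HDC-null marrow, and 4210 to 4460 and 1480 to 1600 in the tumor pools. Cd3d alone made up 94% of the sum in HDC-null marrow and 96.7% in wild-type tumor, so the sum there restates Cd3d, while Nkg7 made up 73.9% in wild-type marrow. The T cell genes Cd3e, Cd4 and Cd8a lay under log2 5 in all 4 pools, and Cd3g and Cd2 in both marrow pools and the wild-type tumor pool. The part of T cells in the values of Ugt8a was not tested. Zfp692, a zinc finger gene, followed at 0.81, with 5.41 and 7.92 in marrow and 7.59 and 6.15 in tumor.

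For Ap1s3 the nearest were Hal, the histidine ammonia-lyase that breaks down the amino acid from which histamine is made, at 0.37 and r = 0.98, and Ctse, the protease cathepsin E, at 0.43 and r = 0.99. Hal went from 4.58 to 7.71 between the marrow pools and lay at 8.15 and 7.14 in the tumor pools. The other detected probe set of Ctse differed by -0.79 in marrow, so Ctse does not show this pattern throughout. For Pik3ap1 they were Snx24, a sorting nexin, at 0.23 and Snhg4, a non-coding host of small nucleolar RNAs, at 0.33, both with r = 0.99. Snx24 was at 3.89 in wild-type marrow, 7.53 in HDC-null marrow, and 8.90 and 8.88 in tumor. For Bend4, leaving aside Pik3ap1 at 0.43, they were Ssh1, a phosphatase that activates the actin-severing protein cofilin, at 0.44 and Gbp2b, an interferon-induced guanylate-binding protein, at 0.45. Gbp2b gave a mean of 1.59 in wild-type marrow, against 7.95 in HDC-null marrow and 9.34 and 10.44 in the tumor pools.

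Lhx1 and Fam71b lay at 0.86 from each other, with r = 0.89. Outside the 6 genes, nearest to Lhx1 were Sntb1, a syntrophin, at 0.84 and Gabbr1, a GABA receptor subunit, at 0.90, and their marrow differences were 1.09 and 0.42 beside 2.80 for Lhx1. Outside the 6 genes, nearest to Fam71b were Rag1, the recombinase of lymphocyte precursors, at 0.97 and Tesc, the calcium-binding tescalcin, at 0.99. Rag1 went from 4.57 to 6.74 in marrow and lay at 2.73 and 2.60 in tumor. Tesc went from 6.07 to 8.31 in marrow and from 7.26 to 5.24 in tumor. Among the 6 genes themselves, Pik3ap1 and Bend4 were closest, at 0.43 and r = 1.00, and Lhx1 and Bend4 farthest, at 3.40 and r = -0.40.

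Basophil and mast cell markers also moved between the marrow pools, where the 6 genes were picked. Of 5 tested, Mcpt8, Fcer1a, Ms4a2 and Cpa3 were called lower in the HDC-null pool and none higher. Over all tested genes 2.02% were called lower and 1.8% higher there. The summed linear level of the markers was 404 to 429 against 1390 to 1560. In tumor 15.5% of all tested genes were called higher. All 5 markers had means under log2 5 in both tumor pools, and Kit was called higher there between such means. Their part in the values of the 6 genes was not tested.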

How the data were processed

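Per the submitters' processing notes, the authors made the deposited values with GCRMA, which removes background, brings arrays to a common scale and sums probes into probe sets. The 45101 values of each array were taken as log2 because they run from 0.749 to 15.3 (log2 scale of the deposited files read from the values). Software versions, detection calls and the genome build of the array: not given in the sources used here. Precision is limited by 2 arrays for each pool.

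Names came from the supplied platform annotation, in which 34958 probe sets had a single symbol, 932 several and 9211 none. A gene was represented by its brightest probe set on average, which gave 18194 genes, and 8174 of them reached log2 5 on 2 or more arrays and were tested. Arrays were grouped by title. All 8 arrays entered a single limma fit (version 3.58.1, R 4.3.3, with lmFit and eBayes), checked on simulated data. A call needed a log2 difference of 1 or more in size and an adjusted p (Benjamini-Hochberg) under 0.05. Errors of differences are limma's SE. A fold given as "at least" has means under log2 5 raised to 5.

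The 6 genes, the pathway and marker lists and the tests were chosen with earlier results of these data known. Named by rule were the 6 genes, Hdc, the 2 nearest patterns of each among other named genes, called chromosome neighbours, a fixed set of partners and paralogs, called markers, and up to 3 called genes of each pathway list and comparison. The epithelial markers called in tumor are given only as a count. Gspt2, Plagl1, Rras2, Tmem87a, Wdfy1, Mrpl44, Aatf, Degs1, Smpd1, Psap, Sgpl1, Asah1, Tcf4 and the LIM homeodomain relatives were named after their values were seen. Promoters came from RefSeq (GRCm38.p6), read with Python 3.11.15, numpy 2.4.6 and pandas 2.3.3. The closing section gives the effect of the alternatives tried.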

Additional observations from a re-analysis of the deposited data

Results flagged for a closer look

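For 4 of the 6 genes the HDC-null arrays lay above the wild-type arrays in marrow and below them in tumor without overlap. The rise in marrow was set by the choice of the genes, so this difference between the tissues was not tested. The share of all tested genes with the same pattern was not counted, so the count of 4 is a description only. Paired arrays lay a median of 0.07 to 0.10 apart on the log2 scale, so small differences can leave pools without overlap. In tumor 74.8% of all tested genes passed an unadjusted p of 0.05 (limma). The log2 effect in tumor minus that in marrow was -7.04 for Ugt8a, with 4.20 in marrow and -2.83 in tumor. It was -4.31 for Ap1s3, with 3.53 and -0.78, and the latter was under 2-fold and not called. For Fam71b it was -5.78, with 4.36 and -1.42, but 2 of its pool means lay under log2 5, and with values raised to log2 5 it was -4.42, with 4.05 and -0.37. For Lhx1 it was -3.10, with 2.80 and -0.30. Both its tumor pools lay close to log2 5, and the tumor difference did not pass the test (limma, adjusted p = 0.15). These are values at the kept probe sets. At the other probe set of Lhx1 the tumor pools overlapped, all under log2 5. It gave 4.58 and 4.69 in wild-type and 4.34 and 4.66 in HDC-null-labelled tumor.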

How the results depend on the processing

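Each result was recomputed with the low-value filter dropped or set to log2 7, with values raised to log2 5, after quantile normalization or median centring, with probe sets averaged, taken singly or without _x_at and _s_at types, with fits of the compared pools only, with trended robust variance, with a replicate block, with arrays averaged (which gives no test), and with each array omitted. In all of these settings Ugt8a was lower in the HDC-null-labelled tumor pool. The marrow difference of the 6 genes at tested probe sets stayed above 0, but they were picked on it, so nothing is read from this.

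With values raised to log2 5, 1 of the 6 genes was called in tumor instead of 2, since Fam71b came to -0.37, and 2 pathway genes in marrow instead of 4, since Gla and Blnk lay at background, and Rab2b lost its call in tumor. With probe sets averaged, 2 pathway genes were called in marrow, without Gla and Pik3cg, and the marrow differences of Ugt8a, Pik3ap1 and Bend4 were 2.48, 1.49 and 2.15, as their other probe sets lay at background. With probe sets taken singly, 502 were called in marrow against 312 genes and 3300 in tumor against 2122, with 1 marrow neighbour (Cyfip2) against 0, and more features were tested. Quantile normalization turned the tumor difference of Bend4 from -0.0217 to 0.0229.

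Omitting each array gave 286 to 311 genes in marrow and 2122 to 2140 in tumor, 3 to 4 and 10 to 11 pathway genes, 0 neighbours and 2 of the 6 genes in tumor. Same-numbered arrays share only a number, and their deviations from the pool means correlated at -0.015 to 0.058. With the replicate block there were 312 and 2122 genes, 4 and 11 pathway genes, 0 neighbours and 2 of the 6 genes, the same counts as without it.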
